A study of Mus musculus with 12 samples.

Results

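CCl4 is a solvent that hepatocytes convert to a toxic radical, and a single injection kills hepatocytes around the central veins. The fragments of tRNAs that wild-type mouse livers held after such an acute injury are described here by subtype, by isodecoder (the tRNAs of 1 anticodon), by position on the tRNA and by length. The WT D3 group was examined on day 3 after 1 intraperitoneal injection of CCl4, 40% in corn oil at 2 mL per kg body mass. The WT D0 group stood for day 0 and received corn oil alone. All mice were wild-type B6D2F1/Crl males, labelled as 8 to 12 weeks old (9 to 12 weeks in the treatment protocol), so both groups shared strain, sex and genotype. The whole liver without gall bladder was used. For each group, 2 libraries of small RNAs from tRNAs were sequenced (tsRNA-seq), which the methods call independent biological replicates, and these are 4 of the 12 libraries of the series. The rule that chose the data was the labels of these 4 libraries and no measured value. The other libraries came from WT livers on day 27 and from livers with a deletion in NSun2 (NS-KO). Each distinct read sequence was counted once. The 4 libraries held 34895 of the 87699 distinct sequences of the series. The table lists reads of tRNAs only, so neither liver markers nor markers of infiltrating cells could be checked. Since whole liver was used, a change in the cells present and a change of RNA within a cell cannot be told apart.

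tRNAs are transcribed as precursors whose 5′ leader is cut by RNase P and whose 3′ trailer, ending in a run of T in the DNA, is cut by RNase Z before CCA is added to the 3′ end. tsRNAs (tRNA-derived small RNAs) arise from both forms. Nucleases of the RNase A family, of which angiogenin is the best known, cut mature tRNAs in the anticodon loop during stress and split them into 5′ and 3′ pieces (tiRNAs), while shorter fragments end in the D-loop or begin in the T-loop. Liver is rich in 5′ fragments of glycine, glutamate and valine tRNAs. The subtypes used here are those assigned to each read in the deposited table. tRF-5a, tRF-5b and tRF-5c are 5′ fragments of increasing length and tiRNA-5 reaches into the anticodon loop. tRF-3a (17 and 18 nt) and tRF-3b (19 to 22 nt) end in the CCA of the mature tRNA, and tiRNA-3 runs from the anticodon loop to the 3′ end. tRF-1 is the 3′ trailer of a precursor, tRF-2 a fragment around the anticodon, and Other holds every remaining fragment. In other systems, Argonaute proteins, which carry miRNAs, can also bind 3′ fragments of about the length of a miRNA.

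The fragments that the comparison turns on are printed as the libraries read them, 5′ to 3′ with T for U. The first set holds fragments of the 5′ end. The capital marks the last base. All 4 sequences of Gly-CCC and Gly-GCC tRNAs begin at base 1 and match the same 4 mature tRNAs, listed on chromosomes 1, 3 and 8. In the form named C31T, the gene's base comes first, then the position from the 5′ end of the fragment, then the base read.
Gly-CCC/Gly-GCC 30 nt: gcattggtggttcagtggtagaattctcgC
Gly-CCC/Gly-GCC 31 nt: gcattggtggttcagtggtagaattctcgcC
Gly-CCC/Gly-GCC 31 nt C31T: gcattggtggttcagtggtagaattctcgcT
Gly-CCC/Gly-GCC 32 nt: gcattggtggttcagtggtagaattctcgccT
Glu-TTC tiRNA-5, 34 nt: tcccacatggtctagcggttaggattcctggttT
Val-AAC/Val-CAC tRF-5b, 23 nt: gtttccgtagtgtagtggttatC
Glu-CTC/Glu-TTC tRF-5a, 16 nt: tccctggtggtctagT
Tyr-GTA tRF-5a, 16 nt: ccttcgatagctcagC

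The second set holds fragments of the mature 3′ end, with CCA in capitals, and shows that the 22-nt forms reach from the T-loop to the end of the tRNA. The Glu-TTC fragments match 1 mature tRNA, tRNA-Glu-TTC-1-1, listed at chr7:58399315-58399386.
Glu-TTC tRF-3b, 22 nt: tcgactcccggtgtgggaaCCA
Glu-TTC tRF-3a, 18 nt: ctcccggtgtgggaaCCA
Ala-CGC/Ala-TGC tRF-3b, 22 nt: tcgatccccggcatctccaCCA
Ala-CGC/Ala-TGC tRF-3a, 18 nt: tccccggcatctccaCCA
Leu-CAA/Leu-CAG tRF-3b, 22 nt: tcgaatcccacttctgacaCCA
Gly-CCC/Gly-GCC tRF-3b, 22 nt: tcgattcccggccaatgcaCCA
mt-His-GTG tiRNA-3, 40 nt: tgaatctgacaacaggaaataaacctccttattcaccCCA

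The third set holds trailers, which begin at the first base after the mature tRNA, with the final run of T in capitals, and the leading fragments of other classes. The Met-CAT trailer comes from the initiator methionine gene tRNA-iMet-CAT-1-1 at chr3:90475860-90475931, the Gly-TCC trailer from tRNA-Gly-TCC-1-7 at chr11:69041278-69041349 and the mt-Val-TAC trailer from the mitochondrial gene at chrM:1025-1093. The mt-Ser-GCT fragment starts at base 1 of the gene at chrM:11613-11671. The Arg-CCT fragment covers bases 16 to 31 of tRNA-Arg-CCT-1-1 (chr11:115412981-115413053) and tRNA-Arg-CCT-2-1 (chr11:115413304-115413376). The Met-CAT internal fragment covers bases 34 to 54 of 5 mature elongator methionine tRNAs, listed on chromosomes 5, 13 and 15.
Met-CAT tRF-1, 15 nt: tcggaggctttgTTT
Gly-TCC tRF-1, 14 nt: acggcaaaccTTTT
mt-Val-TAC trailer, 21 nt: actaatcctagccctagccct
mt-Ser-GCT 5′ end, 22 nt: aagaaagattgcaagaactgct
Arg-CCT internal, 16 nt: tggataaggcactggc
Met-CAT internal, 21 nt: cataatctgaaggtcctgagt
Leu-TAG tRF-2, 14 nt: tggatttaggctct

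The leading fragment of each subtype was set by its reads, and the 30- and 32-nt glycine forms, the mt-Ser-GCT, Arg-CCT and internal Met-CAT fragments and the further 3′ fragments were added after their values were seen. Coordinates are those of the deposited table, counted from 1, and its build is not given in the sources used here. RefSeq's table of GRCm38.p6 has a tRNA gene with the same start and end for 370 of the 439 nuclear precursors, among them every nuclear gene whose interval is printed here. Each interval is a tRNA gene, and the strand is not used here. The references hold 299 mature and 460 precursor tRNAs, so a number of mature tRNAs matched is not a number of genes.

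WT D3 libraries held 81515 and 193377 tRNA reads, against 266322 and 161485 in WT D0 libraries. Levels are given in CPM, the reads scaled to 1 common total per library, and 1 library of WT D3 was the shallowest of the 4. The threshold for an expressed fragment, 20 CPM, is the number given in the methods, which scale to all aligned reads, whereas the total here is that of tRNA reads. On this total it took 2 and 4 reads in WT D3 libraries and 6 and 4 reads in WT D0 libraries. A count of 0 allows up to 3 reads, which is 36.8 and 15.5 CPM in WT D3 libraries and 11.3 and 18.6 CPM in WT D0 libraries. This limit and all intervals below cover counting error only, because PCR copies of 1 molecule cannot be recognised in these reads.

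More different fragments were expressed in injured livers, while few were particular to either group. WT D3 libraries held 4283 and 2776 expressed fragments, against 1844 and 2127 in WT D0 libraries. At the depth of the shallowest library and with at least 2 reads, the numbers were 4283 and 3044 in WT D3 and 2266 and 2720 in WT D0 (means over random draws of reads). The ratio of the group means was 1.78 as counted. At equal numbers of reads outside tRF-5c, the most abundant subtype, it was 1.07, with 3777 and 3614 fragments in WT D3 and 3396 and 3523 in WT D0. The groups did not overlap under any of these settings, but the part of the tRF-5c share in the larger ratio was not tested. A set of 1307 fragments reached 20 CPM in all 4 libraries and took 77.7 and 86.1% of the reads in WT D3, against 91.0 and 88.5% in WT D0. Only 8 fragments reached 20 CPM in both WT D3 libraries without a read in either WT D0 library, 3 of them of type Other, 2 tRF-1 and 1 each of tRF-3a, tRF-3b and tRF-5c. The opposite pattern was seen for 1 fragment. With 2 libraries against 2, no exact permutation test of a number or share can give a p below 0.3333, so these values are a description.

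By subtype, injured livers had a smaller share of tRF-5c and larger shares of most other classes. tRF-5c made up 35.6 and 61.5% of reads in WT D3 libraries, against 71.5 and 64.4% in WT D0 libraries. The means were 48.6 ± 18.3% in WT D3 and 68.0 ± 5.1% in WT D0 (SD, n = 2 each), and the difference of 19.4 percentage points in the means was 6.43 points without WT D3 replicate 1. Since the shares of a library add up, each other class was also set against the reads outside tRF-5c, of which there were 52480 and 74422 in WT D3 and 75789 and 57570 in WT D0. On this base, tRF-1 made up 11.9 and 6.64% in WT D3, against 5.83 and 6.34% in WT D0. tRF-3b made up 1.01 and 0.821% in WT D3, against 0.585 and 0.669% in WT D0. tRF-5a made up 1.496 and 0.978% in WT D3, against 0.847 and 0.837% in WT D0. The short 5′ fragments, the longer class of 3′ fragments and the trailers were thus above WT D0 in both WT D3 libraries on both bases. tRF-5b and tiRNA-3 lay below WT D0 on this base, with 0.453 and 0.450% of tRF-5b in WT D3 against 0.496 and 0.493% in WT D0. The groups overlapped on this base for tRF-3a and tiRNA-5, and for Other, which was above WT D0 only as a share of all reads.

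**Figure D1:**
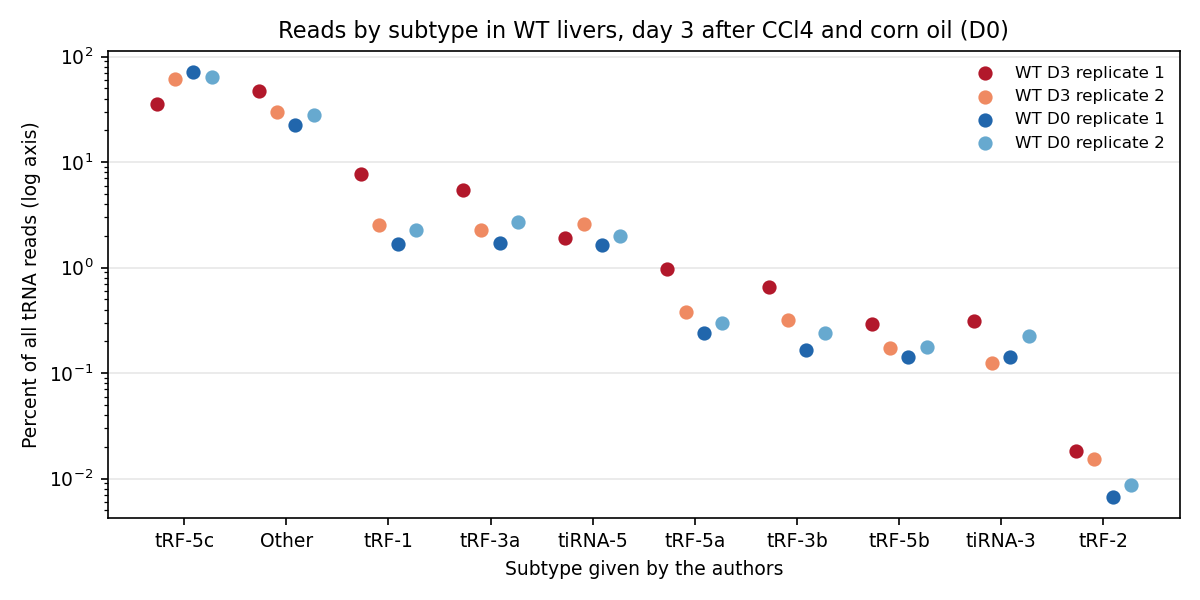
Share of all tRNA reads (percent, log axis) by subtype in the 2 WT D3 and 2 WT D0 libraries, 1 point per library. tRF-5c lay at 35.6 and 61.5% in WT D3, below both WT D0 libraries, and WT D3 replicate 1 stood highest for tRF-1 and tRF-3a.

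Single fragments gave no call. In limma's test of 22065 fragments on log2 CPM scaled by TMM, 0 passed an adjusted p of 0.05 (0% of those tested), against 391 higher and 308 lower at an unadjusted p under 0.05. With voom weights 0 passed, against 701 higher and 666 lower unadjusted. For the 31-nt glycine fragment C31T, the sequence with the most reads, CPM were 76240 and 115400 in WT D3 and 200700 and 164700 in WT D0 (log2 fold change −1.66, SE 0.63, adjusted p = 1 in limma). Both injured livers were below both controls. The trailer of the initiator methionine tRNA had 12060 and 4090 CPM in WT D3, against 3071 and 3660 CPM in WT D0 (log2 fold change 0.36, SE 0.31). The mt-Val-TAC trailer, the leading fragment of the mitochondrial tRNAs, had 16880 and 8600 CPM in WT D3 and 10280 and 12140 CPM in WT D0, where the groups overlap.

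Reads were also summed by subtype and isodecoder, and 1 of 281 sums was called (0.356%), the tRF-3b of Glu-TTC. At an unadjusted p under 0.05, 17 sums were higher and 2 lower. The sign of a fold change leaned on the scaling. TMM, which sets the bulk of sequences equal between libraries, gave a median log2 fold change over all sums of 0.09, with 162 positive and 117 negative. Scaling to the total of reads gave a median of 0.73 with 250 positive. TMM factors were 1.53 and 0.672 in WT D3 and 0.486 and 0.796 in WT D0, larger where a library held fewer reads. They thus nearly cancelled the scaling by depth, and fold changes under TMM lie close to those of unscaled reads. In CPM, both WT D3 libraries stood above both WT D0 libraries for 126 sums (44.8%), below them for 10 (3.56%) and overlapped for 145. These shares are the background for every sum described below.

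tRF-3b of Glu-TTC, the 3′ end of a glutamate tRNA that reads GAA codons, rose in injured livers. The 33 sequences of this sum had 101 and 85 reads in WT D3 libraries, against 20 and 23 reads in WT D0 libraries. In CPM these were 1239 and 440 in WT D3 and 75.1 and 142 in WT D0. The lowest WT D3 library was thus above the highest WT D0 library. The log2 fold change was 2.03 (SE 0.35, adjusted p = 0.0425 in limma), a 4.07-fold change on the TMM scale. The 22-nt fragment printed above carried most of it, with 67 and 55 reads in WT D3 against 13 and 14 reads in WT D0 (log2 fold change 2.03, SE 0.54, adjusted p = 1 among single fragments). Among all reads of the mature 3′ end of Glu-TTC, 62.4 and 53.1% were 22 nt long in WT D3, against 25.0 and 27.2% in WT D0. The 18-nt form had 33 and 27 reads in WT D3 and 22 and 13 reads in WT D0. In CPM these were 405 and 139.6 in WT D3 and 82.6 and 80.5 in WT D0, without overlap, while as a share of the 3′ reads they overlapped at 21.02 and 16.9% in WT D3 and 27.5 and 16.1% in WT D0. These reads make up the tRF-3a sum of Glu-TTC, which was not called (log2 fold change 0.76, SE 0.56, adjusted p = 0.836 in limma). The 34-nt 5′ fragment of the same tRNA, the leading tiRNA-5, overlapped between groups at 1165 and 3387 CPM in WT D3 and 2009 and 2842 CPM in WT D0. The call of the sum was lost without any 1 of the 4 WT libraries (adjusted p 0.2 to 0.537, log2 fold change 1.88 to 2.18). It was also lost with TMM factors from expressed fragments only (adjusted p = 0.0618), with voom weights (0.0679), with the 4 WT libraries fitted alone (0.0817), with perfect matches only (0.0703) and without the filter on low sums (0.0937).

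**Figure D2:**
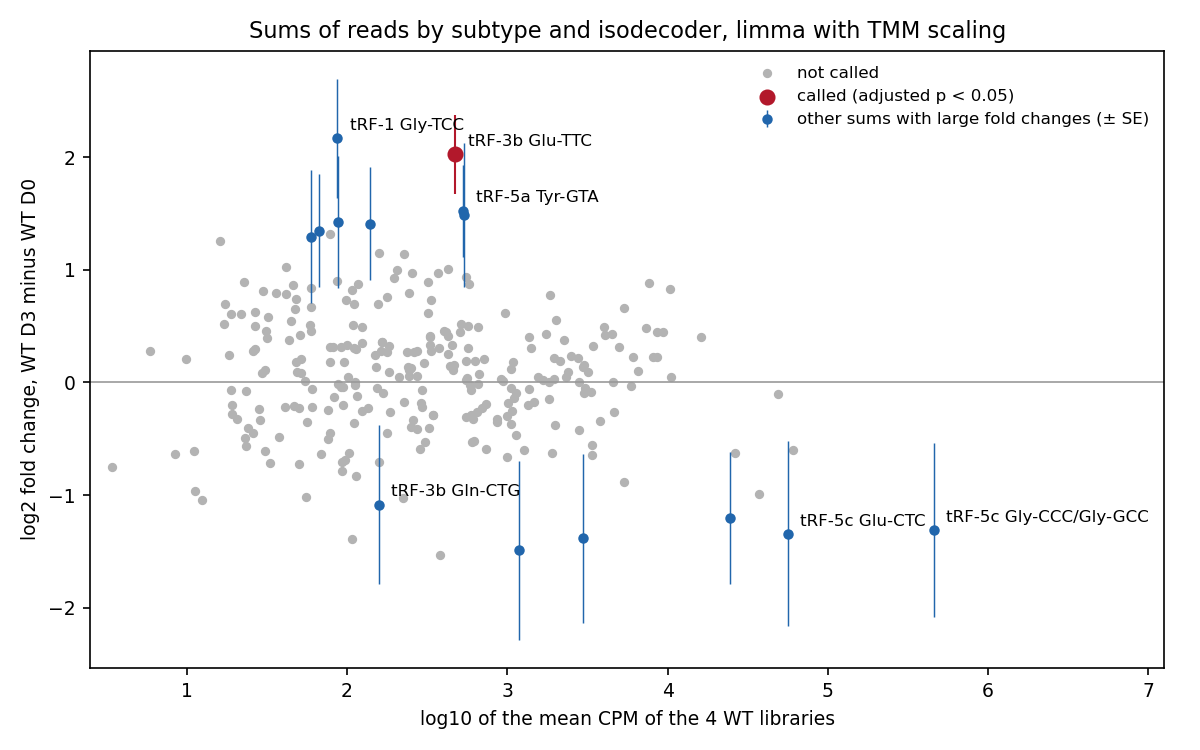
Log2 fold change of WT D3 minus WT D0 from limma with TMM scaling, against log10 of the mean CPM of the 4 WT libraries, for 281 sums of reads by subtype and isodecoder. The red point is the tRF-3b of Glu-TTC, called at a log2 fold change of 2.03, blue points are the 13 other sums with the largest fold changes among those of at least 100 mean CPM without overlap, with their SE, and grey points are the rest.

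Among sums of at least 100 mean CPM in either group, 209 in all, WT D3 was above WT D0 without overlap for 102, below it for 6, and overlapped for 101. The 8 with the largest positive fold change were, besides Glu-TTC, 4 trailers, 2 short 5′ fragments and 1 mitochondrial tiRNA-3, and none of these 7 passed the adjusted threshold in limma. Of these, tRF-1 of Gly-TCC, Trp-CCA and Asp-GTC, tRF-5a of mt-Gln-TTG and tiRNA-3 of mt-Val-TAC reached 100 mean CPM in WT D3 only. A higher level in WT D3 could thus itself admit a sum to this list, so its make-up is a description only. tRF-1 of Gly-TCC, a glycine tRNA with another anticodon, had 22 and 11 reads in WT D3 and 1 and 3 reads in WT D0 (log2 fold change 2.17, SE 0.53, adjusted p = 0.282). Its 14-nt trailer was read 12 and 5 times in WT D3 and not once in WT D0, where 3 reads would be 11.3 and 18.6 CPM. tRF-1 of Ser-AGA had 1509 and 347 CPM in WT D3 and 124 and 186 CPM in WT D0 (log2 fold change 1.49, SE 0.64). tRF-1 of Trp-CCA had 16 and 20 reads in WT D3 against 9 and 3 in WT D0, and that of Asp-GTC 33 and 16 reads in WT D3 against 8 and 7 in WT D0. All 4 trailers lay higher in WT D3 replicate 1 than in WT D3 replicate 2 in CPM. tRF-5a of Tyr-GTA, which holds reads of 14 to 16 nt, had 1300 and 502 CPM in WT D3, against 169 and 161 CPM in WT D0 (log2 fold change 1.53, SE 0.41, adjusted p = 0.342). The mitochondrial sums were small, with 11 and 18 reads in WT D3 against 6 and 3 in WT D0 for tRF-5a of mt-Gln-TTG, and 12 and 11 reads in WT D3 against 3 and 4 in WT D0 for tiRNA-3 of mt-Val-TAC. Scaled by library size alone, the sums of Gly-TCC tRF-1, Ser-AGA tRF-1 and Tyr-GTA tRF-5a passed as well (adjusted p 0.0323, 0.0333 and 0.0333).

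The 6 sums below WT D0 were 5 fragments of the 5′ end and 1 of the 3′ end, and none passed the threshold. tRF-5c of Gly-CCC/Gly-GCC, the largest sum of all, had 271000 and 472400 CPM in WT D3, against 582100 and 508000 CPM in WT D0 (log2 fold change −1.31, SE 0.77, adjusted p = 0.794 in limma). tRF-5c of Glu-CTC had 29420 and 62280 CPM in WT D3, against 67930 and 65500 CPM in WT D0 (log2 fold change −1.35, SE 0.82). tRF-5c of Val-AAC/Val-CAC had 17820 and 23110 CPM in WT D3 and 26990 and 30440 CPM in WT D0 (log2 fold change −1.20, SE 0.59). In each of these the gap was mostly that of WT D3 replicate 1, and without it the log2 fold changes were −0.31, −0.21 and −0.42 (1 library against 2). The tiRNA-5 sums of Glu-CTC and of Glu-CTC/Glu-TTC had log2 fold changes of −1.38 and −1.49, with 1583 and 3108 CPM in WT D3 against 3590 and 3561 CPM in WT D0 for Glu-CTC. tRF-3b of Gln-CTG, a glutamine tRNA, had 123 and 140 CPM in WT D3 and 188 and 180 CPM in WT D0 (log2 fold change −1.08, SE 0.70). Without WT D3 replicate 1, the values were −0.31 for tiRNA-5 of Glu-CTC, −0.52 for that of Glu-CTC/Glu-TTC and −0.48 for tRF-3b of Gln-CTG. All 6 stayed negative when scaled by library size.

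The tRNAs of these 5′ fragments are those known from stress in other cells, where angiogenin cuts Gly-GCC, Glu-CTC, Val-AAC, Val-CAC, Lys-CTT, His-GTG and Asp-GTC. Of 32 tested sums of their 5′ fragments, 0 were called, 14 were positive and 18 negative, with a median of −0.33 (0.33 by library size), beside 0.09 (0.73) over all sums. For all 65 nuclear 5′ sums 0 were called, 37 were positive and 27 negative, with a median of 0.24. tRF-5c of Gly-GCC alone, which does not match Gly-CCC, did not share the pattern of the joint sum. It had 20330 and 35070 CPM in WT D3 and 26130 and 24370 CPM in WT D0, and its log2 fold change was −0.62 under TMM but 0.08 by library size and 0.36 without WT D3 replicate 1. tiRNA-5 of Glu-TTC, with 3006 and 7483 CPM in WT D3 and 4374 and 6651 CPM in WT D0, and tRF-5b of Val-AAC/Val-CAC, with 834 and 688 CPM in WT D3 and 680 and 731 CPM in WT D0, overlapped between groups.

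The lengths of 5′ fragments differed more evenly between the groups than their levels. Among reads of the 5′ end of Gly-CCC/Gly-GCC, the 31-nt form made up 69.4 and 59.3% in WT D3, against 82.5 and 78.9% in WT D0. The 32-nt form made up 14.0 and 19.9% in WT D3 against 6.08 and 7.52% in WT D0. The 30-nt form made up 14.4 and 15.3% in WT D3 against 10.6 and 12.1% in WT D0. Injured livers thus held a smaller share of the main length and larger shares of the lengths on both sides of it, in both libraries. Most 31-nt reads mismatched the tRNA at their last base (below), so a length need not mark the cut. The perfectly matched 32-nt fragment had 22790 and 57780 CPM in WT D3, against 21460 and 22260 CPM in WT D0, while the 31-nt one had 67910 and 102900 CPM in WT D3 against 166200 and 138200 CPM in WT D0. Among reads of the Glu-CTC 5′ end, the 31-nt form made up 46.0 and 38.0% in WT D3, against 50.6 and 49.4% in WT D0, and the 30-nt form 5.73 and 9.94% in WT D3 against 3.60 and 4.74% in WT D0. Unlike in glycine, the 32-nt form of Glu-CTC overlapped at 9.81 and 5.18% in WT D3 and 7.21 and 7.12% in WT D0. The 33-nt form, the second largest, was a smaller share at 20.1 and 23.0% in WT D3 against 26.9 and 25.7% in WT D0. For Val-AAC/Val-CAC the main form is 32 nt long, with 77.0 and 70.4% in WT D3 against 84.4 and 83.1% in WT D0, and the 33-nt form made up 10.3 and 14.99% in WT D3 against 8.24 and 8.48% in WT D0. The 31-nt form of Val-AAC/Val-CAC overlapped at 4.40 and 6.35% in WT D3 and 3.30 and 4.52% in WT D0. In all 3 tRNAs the main length was a smaller share in both WT D3 libraries. Over all tRF-5c reads the 32-nt share was 19.3 and 21.4% in WT D3 against 10.6 and 12.9% in WT D0, and the mean difference of 8.60 percentage points was 2.50 among reads of 1 isodecoder only, which leaves out the joint glycine sum. Mismatches at the last base were slightly fewer in both injured livers for the main glycine form. Of 31-nt glycine reads without a mismatch at another base, 61.5 and 61.3% in WT D3 and 63.0 and 63.3% in WT D0 carried such a mismatch. Counted in the same way, 55.8 and 54.3% of 30-nt reads in WT D3 and 56.4 and 57.3% in WT D0 did. The 32-nt reads overlapped at 32.02 and 30.7% in WT D3 and 30.9 and 33.5% in WT D0.

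**Figure D3:**
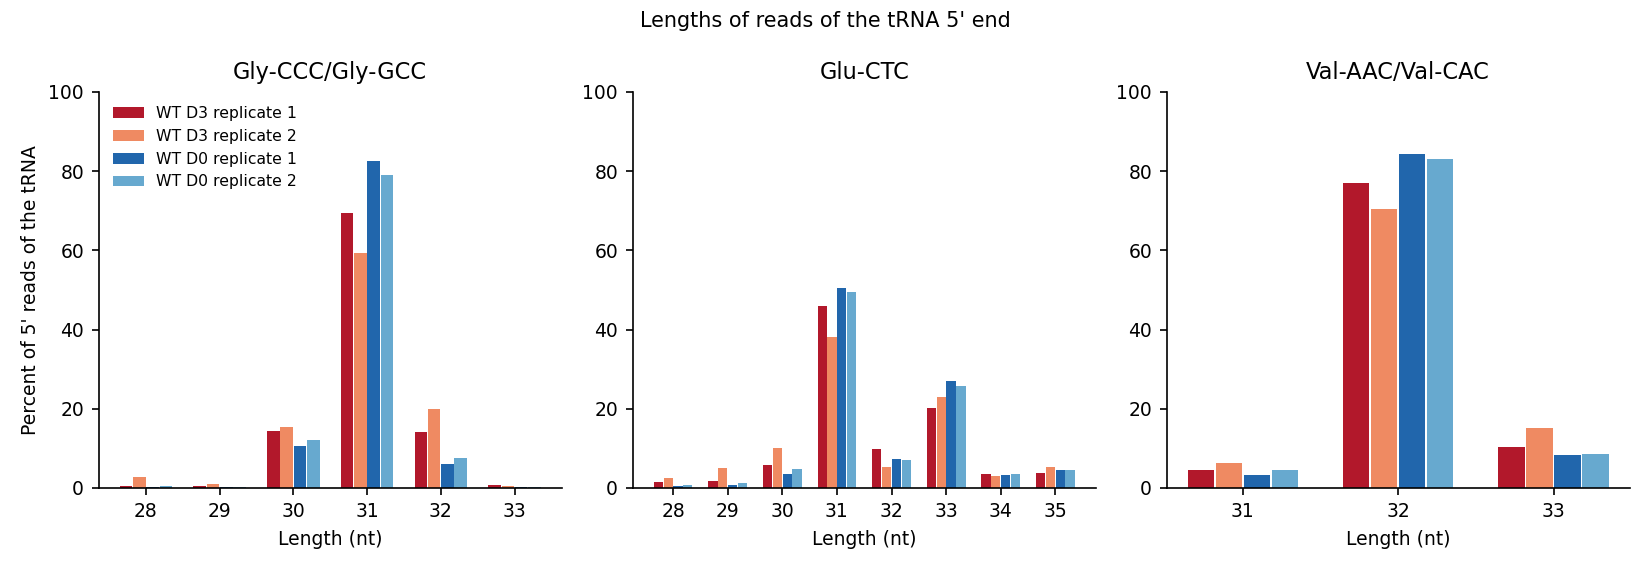
Share of each length (nt) among reads that start at base 1 of the mature tRNA (percent of the 5′ reads of that tRNA), for 3 sets of isodecoders and the 4 libraries, 1 bar per library. In Gly-CCC/Gly-GCC the 31-nt bar is lower in both WT D3 libraries (69.4 and 59.3%) than in both WT D0 libraries (82.5 and 78.9%), and the 30- and 32-nt bars are higher.

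Sums by subtype and length and by isodecoder and cut position were fitted in the same way. A cut position was taken from the read length, also where the last base was a mismatch. Of 75 sums by length, 0 were called (0%), with 2 higher and 3 lower at an unadjusted p under 0.05 and 0 called with voom weights. The one with the lowest adjusted p was the 22-nt tRF-3b, at 4735 and 2249 CPM in WT D3 against 882 and 1263 CPM in WT D0 (log2 fold change 0.92, adjusted p = 0.304 in limma). Without WT D3 replicate 1, the 28-nt tRF-5c was called (log2 fold change 2.35, adjusted p = 0.0235), a length that made up 0.851 and 3.40% of tRF-5c reads in WT D3 and 0.453 and 0.691% in WT D0. That call rests on WT D3 replicate 2 alone, taken to vary like the libraries of the other groups, and with both libraries the values were 3030 and 20920 CPM in WT D3 and 3240 and 4446 CPM in WT D0, which overlap. Of 474 cut positions, 0 were called (0%), with 12 higher and 6 lower unadjusted and 0 called with voom weights. The lowest adjusted p, 0.161, belonged to the 3′ fragments of Glu-TTC that start 22 bases from the end, with 98 and 85 reads in WT D3 against 20 and 22 in WT D0.

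The longest form of each class of 3′ fragments, 22 nt in tRF-3b and 18 nt in tRF-3a, made up more of its class in both injured livers. For the 22-nt form this did not hold for Glu-TTC alone. Of the tRF-3a and tRF-3b reads, 7.72 and 8.74% were 22 nt long in WT D3, against 4.69 and 4.31% in WT D0. Without Glu-TTC these were 5.92 and 7.20% in WT D3 and 4.33 and 3.88% in WT D0. Both WT D3 libraries stayed above both WT D0 libraries. Within tRF-3b, 73.0 and 71.2% of reads were 22 nt long in WT D3 against 53.1 and 53.0% in WT D0, and the 20-nt form made up 2.84 and 6.06% in WT D3 against 15.1 and 12.0% in WT D0. The 19- and 21-nt forms were also smaller shares of tRF-3b in both WT D3 libraries. Within tRF-3a the 18-nt form, rather than the 17-nt one, made up 59.6 and 60.2% in WT D3 against 55.1 and 54.3% in WT D0. Sets of isodecoders were followed singly with at least 20 reads of 22 nt over all 4 libraries and 50 reads of 17 to 22 nt in each. For 5 of these 8 sets the 22-nt share was above WT D0 in both WT D3 libraries, for 1 below, and for 2 it overlapped. Shares by isodecoder and region, on another base, were above for 32.2% and below for 14.4% of 180 sets. No such background was computed for the other lengths, so this count is a description. Ala-AGC had the largest share, 33.0 and 27.6% in WT D3 against 22.8 and 19.7% in WT D0. For Ala-CGC/Ala-TGC it was 10.5 and 11.2% in WT D3 against 5.28 and 5.24% in WT D0. For Leu-CAA/Leu-CAG it was 8.85 and 7.46% in WT D3 against 4.94 and 3.39% in WT D0. The joint 3′ end of Gly-ACC, Val-AAC and Val-CAC went the other way, with 1.03 and 0.616% in WT D3 against 1.15 and 1.71% in WT D0, on 3 to 9 reads a library. Mitochondrial 3′ fragments went the other way too, with a 22-nt share of 2.08 and 3.50% in WT D3 against 8.89 and 5.81% in WT D0, on 1 and 5 reads in WT D3 and 12 and 5 reads in WT D0.

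**Figure D4:**
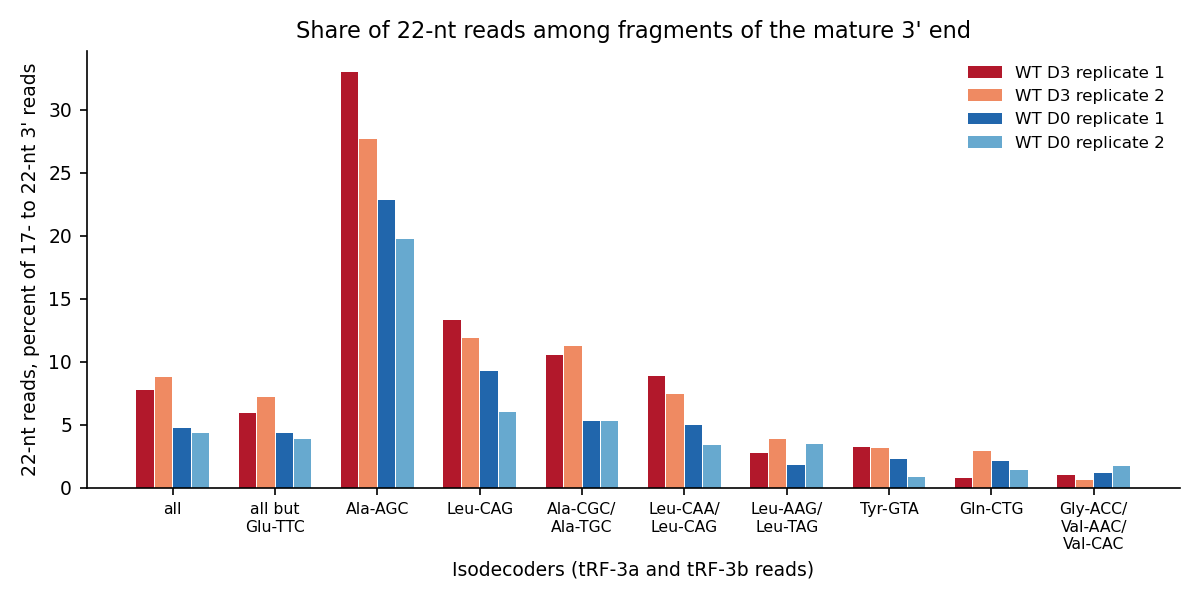
Share of 22-nt reads (percent) among 17- to 22-nt reads of the mature 3′ end, over all isodecoders, without Glu-TTC, and for 8 sets of isodecoders, 1 bar per library. Over all isodecoders the share was 7.72 and 8.74% in WT D3 and 4.69 and 4.31% in WT D0.

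In level, 3′ fragments as a class did not stand apart. Of 55 tested sums of nuclear 3′ fragments 1 was called, that of Glu-TTC, with 26 positive and 28 negative and a median of −0.01. The 21 sums of nuclear tRF-3b had a median of 0.46 and the 34 of tRF-3a one of −0.04. tRF-3b of Ala-CGC/Ala-TGC, the one with the most reads, had 896 and 434 CPM in WT D3 against 154 and 223 CPM in WT D0 (log2 fold change 1.01, SE 0.33, adjusted p = 0.61 in limma). Its 22-nt fragment was read 26 and 36 times in WT D3 against 13 and 11 times in WT D0, and that of Leu-CAA/Leu-CAG 30 and 23 times in WT D3 against 16 and 10 times in WT D0. The Gly-CCC/Gly-GCC one was read 9 and 17 times in WT D3 against 7 and 9 times in WT D0. tRF-3a of Tyr-GTA, the largest tRF-3a sum, overlapped at 11560 and 4685 CPM in WT D3 and 2692 and 5505 CPM in WT D0. A 3′ fragment of Leu-CAG is known in human cells to bind mRNAs of ribosomal proteins. The 6 sums of leucine 3′ fragments had 0 calls and a median of −0.04.

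Trailers of tRNA precursors made up more of the reads in injured livers, mostly in 1 library. tRF-1 of Met-CAT, led by the initiator methionine gene, had 33640 and 12090 CPM in WT D3, against 8396 and 10460 CPM in WT D0 (log2 fold change 0.40, SE 0.33, adjusted p = 0.836 in limma). Among all reads of Met-CAT trailers, a slightly larger set than this sum, the 15-nt form overlapped at 48.7 and 45.4% in WT D3 and 49.0 and 48.2% in WT D0. The 14-nt form made up 6.34 and 4.91% in WT D3 and 4.82 and 4.13% in WT D0. Of 11 sets of isodecoders with at least 20 tRF-1 reads in each library, 5 made up a larger share of the reads outside tRF-5c in both WT D3 libraries, 0 a smaller one, and 6 overlapped. Over all 180 sets by isodecoder and region, 32.2% were larger and 14.4% smaller on this base. The 5 were Met-CAT, Thr-CGT, Cys-GCA, Ile-AAT and Ser-AGA. Met-CAT made up 5.23 and 3.14% in WT D3 against 2.95 and 2.93% in WT D0, and Cys-GCA 0.650 and 0.371% in WT D3 against 0.259 and 0.288% in WT D0. Arg-ACG, the second largest, overlapped at 2.50 and 1.35% in WT D3 and 1.16 and 1.36% in WT D0. The 26 tested tRF-1 sums had 0 calls, 22 positive and 4 negative log2 fold changes and a median of 0.55. For 13 of them WT D3 was above WT D0 in CPM without overlap, for 0 below, beside 126 above (44.8%) and 10 below (3.56%) of all 281 sums.

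A list of 9 isodecoders, singled out by the study for their tRF-1s on these same samples, gives no independent evidence of a direction. All 9 were tested, 0 were called, 8 were positive, and their median was 0.78. For 6 of them WT D3 was above WT D0 in CPM without overlap, beside 44.8% of all sums. Besides Gly-TCC, Ser-AGA and Met-CAT above, tRF-1 of Cys-GCA had 4183 and 1427 CPM in WT D3 against 736 and 1028 CPM in WT D0 (log2 fold change 0.78, SE 0.28). Ile-AAT had 1337 and 414 CPM in WT D3 against 214 and 254 CPM in WT D0, and Arg-CCT 331 and 140 CPM in WT D3 against 86.4 and 68.1 CPM in WT D0. Val-CAC, His-GTG and Phe-GAA overlapped, and Phe-GAA was the negative one at −0.13. The study's supplement holds a longer list of tRF-1s, also chosen on these samples, of which only the entries it places under WT D0 against WT D3 were followed. These were 21 names with 20 distinct sequences, 17 of which had reads in WT livers. All 17 had 0 reads in both WT D0 libraries, which allows up to 11.3 and 18.6 CPM for each. In WT D3 none had more than 2 reads in a library and only 2 were read in both, and together they made up 14 and 8 reads, or 0.223 and 0.162% of the tRF-1 reads. Of 14 that were tested 0 were called. The 2 read in both WT D3 libraries and printed next, because they carry this list here, were trailers of an elongator methionine gene on chromosome 13 (2 and 1 reads) and of a threonine gene on chromosome 11 (1 and 1 reads). tRF-Asp-GTC-022 and tRF-Arg-ACG-037 had 2 reads each in WT D3 replicate 1 and none in the other 3 libraries.
tRF-Met-CAT-036: acctcagcttttaTTTT
tRF-Thr-CGT-008: gcgtttggaagagataTTT

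Reads that touch neither end of the mature tRNA, most of them listed as Other, differed by position once tRF-5c was set aside. Internal reads that lie before the anticodon of nuclear tRNAs made up 10.5 and 8.93% of the reads outside tRF-5c in WT D3, against 7.05 and 6.69% in WT D0. Those over the anticodon made up 7.00 and 5.62% in WT D3 against 5.21 and 4.94% in WT D0, and those after it overlapped at 5.16 and 4.26% in WT D3 and 4.74 and 4.87% in WT D0. Of 180 sets of isodecoders and regions with at least 20 reads in each library, 58 had a larger share in both WT D3 libraries (32.2%), 26 a smaller one (14.4%), and 96 overlapped. Among nuclear sets, 14 were larger and 1 smaller of 24 before the anticodon, and 7 larger and 4 smaller of 19 over it. After it 4 were larger and 10 smaller of 30, and in nuclear trailers 11 larger and 0 smaller of 15. At the nuclear 3′ end 4 were larger, 3 smaller and 23 overlapped. Mitochondrial sets differed, with 4 larger and 1 smaller of 6 after the anticodon and 0 larger and 3 smaller of 8 in trailers. Arg-CCT, an arginine tRNA, made up 1.37 and 1.23% before the anticodon in WT D3 against 0.687 and 0.575% in WT D0. Its 16-nt fragment was read 132 and 178 times in WT D3 against 75 and 41 times in WT D0 (log2 fold change 1.45, SE 0.45, adjusted p = 1 in limma). Met-CAT made up 2.23 and 1.67% over the anticodon in WT D3 against 1.02 and 0.855% in WT D0. Its 21-nt fragment, which starts at the first base of the anticodon CAT, had 3742 and 1898 CPM in WT D3 against 796 and 805 CPM in WT D0 (log2 fold change 1.02, SE 0.41). His-GTG made up 0.821 and 0.808% before the anticodon in WT D3 against 0.571 and 0.596% in WT D0, and Gly-CCC/Gly-GCC overlapped there at 0.856 and 1.53% in WT D3 and 1.05 and 1.05% in WT D0. tRF-2 was rare, and its leading sum, Leu-TAG, had 6 and 11 reads in WT D3 against 5 and 3 in WT D0.

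**Figure D5:**
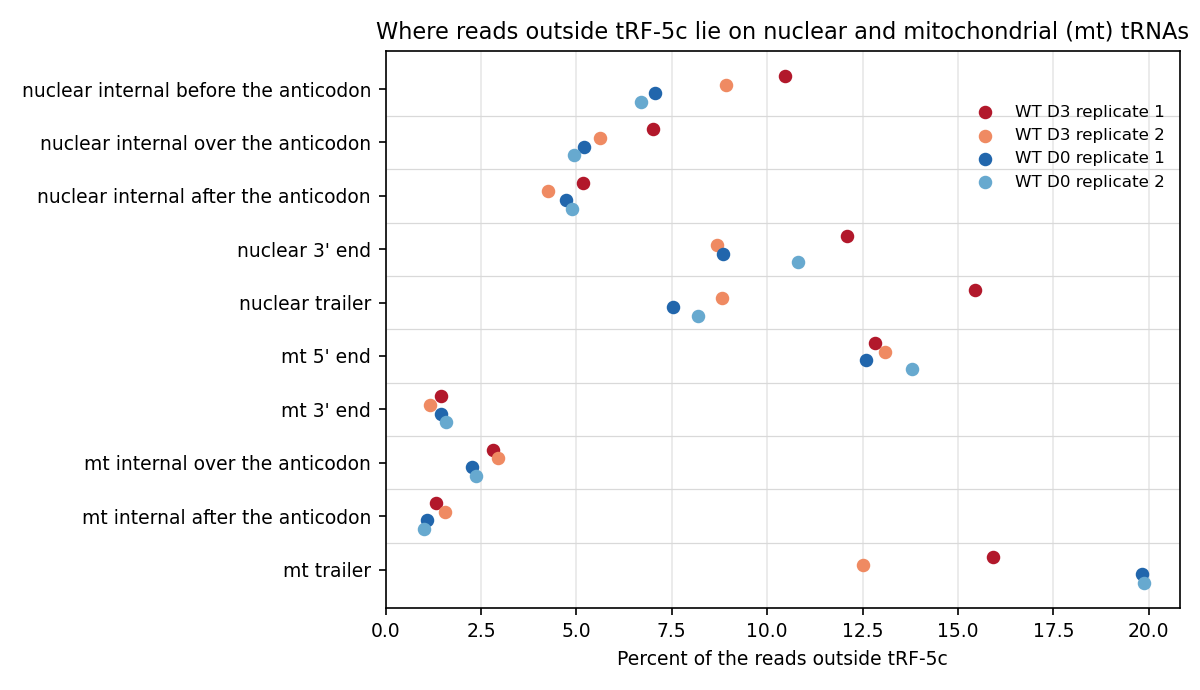
Share of the reads outside tRF-5c (percent) by position on nuclear and mitochondrial (mt) tRNAs, 1 point per library. The nuclear 5′ end, whose main reads are tRF-5c, and classes of few reads are left out. Internal reads before the anticodon lay at 10.5 and 8.93% in WT D3 against 7.05 and 6.69% in WT D0, and the mitochondrial trailer lay lower in both WT D3 libraries.

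Mitochondrial tRNAs made up a smaller share of the reads outside tRF-5c in injured livers, 35.0 and 31.9% in WT D3 against 37.9 and 39.1% in WT D0. As a share of all reads they overlapped, at 22.6 and 12.3% in WT D3 and 10.8 and 14.0% in WT D0. The difference on the first base lay mostly in 1 trailer. Fragments after mt-Val-TAC, which is transcribed between both mitochondrial rRNAs, so that its trailer is the start of the large rRNA, made up 13.2 and 10.6% in WT D3 against 17.7 and 17.3% in WT D0. Mitochondrial trailers together made up 15.9 and 12.5% in WT D3 against 19.8 and 19.9% in WT D0, and 3 of 8 sets were smaller, 0 larger. Internal mitochondrial reads over the anticodon went the other way, with 2.80 and 2.94% in WT D3 against 2.27 and 2.36% in WT D0. mt-His-GTG made up 1.05 and 1.17% of them in WT D3 against 0.761 and 0.888% in WT D0, on the base of reads outside tRF-5c. The tiRNA-3 of the same tRNA, the leading tiRNA-3 sum, overlapped in CPM at 2871 and 1179 in WT D3 and 1382 and 2211 in WT D0, and its log2 fold change was −0.63 under TMM but 0.07 by library size. The 22-nt 5′ fragment of mt-Ser-GCT had 6453 and 8693 CPM in WT D3 against 3804 and 3926 CPM in WT D0 (log2 fold change 0.25, SE 0.46). As a share of the 5′ reads of mt-Ser-GCT, however, 22-nt reads overlapped at 14.0 and 30.7% in WT D3 and 18.6 and 13.6% in WT D0. The smaller share was that of tRNAs of the heavy strand, at 32.4 and 29.2% of the reads outside tRF-5c in WT D3 against 35.7 and 36.9% in WT D0. Those of the light strand made up more, 2.52 and 2.65% in WT D3 against 2.145 and 2.19% in WT D0. Of 35 heavy-strand and 18 light-strand sums 0 were called, with medians of 0.09 and 0.13.

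The remaining large sums were of type Other and none was called. Other fragments of mt-Ser-GCT had 73470 and 45920 CPM in WT D3 against 32920 and 44360 CPM in WT D0, and their log2 fold change, −0.10 under TMM, was 0.60 by library size. Those of Glu-CTC overlapped at 25330 and 42810 CPM in WT D3 and 41090 and 39320 CPM in WT D0. Those of mt-Val-TAC overlapped at 87620 and 42180 CPM in WT D3 and 51160 and 62840 CPM in WT D0, and their log2 fold change of −0.60 under TMM was 0.10 by library size. Both injured livers stood above both controls in CPM for the Other fragments of Met-CAT, Gly-GCC, His-GTG and Lys-CTT. Met-CAT had 22030 and 9344 CPM in WT D3 against 4904 and 5010 CPM in WT D0 (log2 fold change 0.83, SE 0.32). Gly-GCC had 10390 and 15610 CPM in WT D3 against 5215 and 6304 CPM in WT D0 (log2 fold change 0.45, SE 0.69). His-GTG and Lys-CTT had log2 fold changes of 0.05 and 0.22. tRF-5a of Glu-CTC/Glu-TTC overlapped at 1533 and 409 CPM in WT D3 and 282 and 415 CPM in WT D0.

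Modified bases can leave a mismatch when they are read, and the libraries were treated to remove m1A and m3C. Base 32 of Arg-CCT, a known m3C site in the anticodon loop, was misread (most often C32T, counted from the 5′ end of the tRNA) in 91.8 and 96.0% of reads in WT D3 against 94.0 and 97.6% in WT D0, on 42 to 74 reads a library. Base 9 of Tyr-GTA was misread (most often G9T) in 24.9 and 21.9% of reads in WT D3 against 20.7 and 21.99% in WT D0. The groups overlapped at both. The T-loop A of Gly-CCC/Gly-GCC, a known m1A site, was misread (most often A56T) in 48.9% (95% Wilson interval 35.3 to 62.8) and 65.8% (54.3 to 75.6) of reads in WT D3, against 57.1% (40.9 to 72.0) and 33.3% (19.8 to 50.4) in WT D0, on 33 to 73 reads. In 22-nt tRF-3b, where the same A is base 4, a mismatch was seen in 10.4 and 14.1% of reads in WT D3 against 11.7 and 5.03% in WT D0, which overlap. No difference in misreading was thus detectable at these 4 sites at this depth.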

How the data were processed

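From RNA of whole liver, the authors removed amino acids and cyclic phosphates at 3′ ends, phosphorylated 5′ ends, demethylated m1A and m3C and ligated adapters. PCR products were size-selected for inserts of 14 to 40 nt, and the labels also name a gel step for RNA of that size. Per the labels and the methods, they checked reads with FastQC, trimmed adapters with cutadapt and aligned with Bowtie, 1 mismatch allowed, first to mature and then to precursor tRNAs. Versions of these tools and the genome build are not given in the sources used here. The deposited table holds whole-number read counts of each sequence under every tRNA it matched (759 references), with no normalization, and the per-sample files hold the same reads. Each sequence was counted once, under its full set of isodecoders, and the named subtype was kept for 31 sequences that appear under Other as well. Where a name joins isodecoders, reads of their tRNAs cannot be told apart.

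limma 3.58.1 (R 4.3.3) was fitted to log2 CPM (prior count 2) of all 12 libraries with 1 mean per group and a trend, and p-values were adjusted by Benjamini-Hochberg within each family, at a threshold of 0.05. Fragments entered at 20 CPM in at least 1 library. Sums needed a total of 10 reads, and in 2 libraries a CPM that equals 10 reads of the median library. edgeR, which the design named first, was not run. Text lines between the read counts kept the check of units from taking the table as counts. TMM factors came from all 87699 sequences (0.476 to 1.79), as in an earlier analysis of these data, and this was settled after results under other factors were seen. On simulated data, the test made false calls among single fragments with only a few reads in all and none among those with at least 10 reads. The simulation gave every sequence the same spread and replicates the same composition, unlike the WT D3 libraries here. Its rate of false calls therefore need not hold for these data. Voom weights, library size, prior counts, filters, WT libraries alone and a replicate block were tried as alternatives. Shares and numbers were computed with Python 3.11.15, numpy 2.4.6, pandas 2.3.3 and scipy 1.17.1, drawn with matplotlib 3.10.9, and given per library. A region, for reads within the mature tRNA, is set by the anticodon position in the table. Named items are those called, the leading isodecoders and fragment of each subtype, the 12 largest sums, the 8 largest positive and negative fold changes among non-overlapping sums of at least 100 CPM (6 negative ones existed) and the study's tRF-1 list, and 1 fragment that this rule names is not reported here. The members and lists were chosen with earlier results of these data known.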

Additional observations from a re-analysis of the deposited data

Results flagged for a closer look

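The difference WT D3 minus WT D0 was set against the same difference in NS-KO livers in 1 interaction test per sum (limma, Benjamini-Hochberg over 281 sums). The interaction passed for 35 sums, with the WT change above the NS-KO change for 5 and below it for 30. Among sums named here, 5 passed. tRF-3b of Glu-TTC had a log2 fold change of 2.03 in WT and −0.08 in NS-KO livers, a difference of 2.11 (adjusted p = 0.0191). tRF-1 of Met-CAT differed by 1.75, with −1.35 in NS-KO livers (adjusted p = 0.0337), and tRF-3b of Ala-CGC/Ala-TGC by 1.63, with −0.62 in NS-KO livers (adjusted p = 0.0426). tRF-5c of Gly-GCC differed by −3.85, with 3.22 in NS-KO livers (adjusted p = 0.0257), and tRF-1 of Asp-GTC by −2.98, with 4.39 in NS-KO livers (adjusted p = 0.0191). The 2 NS-KO libraries of day 0 held 70818 and 46937 reads, fewer than any of the 4 WT libraries compared here. TMM factors were 1.42 and 1.79 in NS-KO D0 and lower, 0.788 and 1.12, in NS-KO D3. TMM thus raised the NS-KO fold changes over those by library size, while it lowered the WT ones. The interaction was fitted under TMM only, and the parts of depth and of scaling in these differences and in their direction were not tested.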

How the results depend on the processing

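For 17 named sums, 233 fold changes under alternatives were compared with those reported: 218 kept their direction and side of the threshold, 10 lost the call (all for Glu-TTC tRF-3b), 3 gained one by library size and 2 reversed. The number of sums by subtype and isodecoder called was 4 by library size and 0 with voom weights, the 4 WT libraries alone, no filter, perfect matches only or TMM from expressed fragments (chosen after seeing the data), and 0 to 0 when 1 library was left out. It was also 0 with the replicate block (adjusted p = 0.0543 for Glu-TTC). Replicate numbers were taken only to number the samples. Deviations of same-numbered libraries correlated by −0.21 to 0.30 between groups, which cannot show whether the libraries were paired. The block changed no other call. The number of lengths called was 0 to 1 when 1 library was left out. tRF-5c of Gly-GCC reversed from a log2 fold change of −0.62 to 0.081 by library size, and lay between −1.61 and 0.36 when 1 library was left out. Of shares in percentage points, Other went from 13.3 to −3.21 and mitochondrial from 5.06 to −5.08 outside tRF-5c, and the mitochondrial trailer from 1.17 to −5.63 outside tRF-5c and −2.91 among reads of 1 isodecoder. The ratio of numbers of expressed fragments was 1.78, and 1.07 at equal reads outside tRF-5c (chosen after seeing the data). The 22-nt share of 3′ fragments differed by 3.73, and by 2.45 without Glu-TTC (chosen after seeing the data), and the 32-nt share of tRF-5c by 8.60, by 2.50 among reads of 1 isodecoder and by 10.8 among perfect matches. The alternative with edgeR was not run. Depth limits single fragments most, since 20 CPM is 2 to 6 reads, and 2 libraries a group limit every share.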
